A study of Mus musculus with 1 sample.

Results

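The embryonic globin genes *Hba-x* and *Hbb-y* and the adult globin genes *Hba-a1*, *Hba-a2*, *Hbb-bs* and *Hbb-bt* were described in single cells of the fetal mouse testis. These 6 genes were taken by name from the 22631 features of the count matrix. The cells came from 1 library of 5421 barcodes, made from 12 controls at embryonic day 14.5 (the study's text counts 12 whole testes and also names the day before). The labels give the genotype as WT, whereas the study's methods describe its single-cell controls as fetuses homozygous for the loxP-flanked *Nr5a1* allele, without the Cre transgene, on a mixed C57BL/6 and 129/SvPass background; the beta-globin haplotype of the fetuses is not given in the sources used here. Testes were dissociated with trypsin, and no sorting step is described before loading. The mutant testes of the study were not analysed here. With 1 library there is no replicate, hence no test was made, and every interval below is a 95% interval that covers counting error only. Differences between fetuses could not be seen, since the testes were pooled.

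Haemoglobin joins a pair of alpha-type with a pair of beta-type globin chains around heme. In the mouse, the first red cells arise in the yolk sac (primitive erythroid cells) and carry embryonic haemoglobins built with zeta globin (*Hba-x*), epsilon-y globin (*Hbb-y*) and beta-h1 globin (*Hbb-bh1*), together with adult alpha globin. The fetal liver then releases definitive red cells, which carry the adult chains encoded by *Hba-a1*, *Hba-a2*, *Hbb-bs* and *Hbb-bt*. At midgestation both kinds circulate together. Because red cells hold large amounts of globin mRNA, some of it can spill from broken cells into a suspension and be captured with other cells.

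The alpha-type genes lie on the plus strand of chromosome 11 and the beta-type genes on the minus strand of chromosome 7, and each has 3 exons (GRCm38, GENCODE). *Hba-x* spans chr11:32276400-32278116, *Hba-a1* chr11:32283511-32284465 and *Hba-a2* chr11:32296489-32297298. *Hbb-bt* spans chr7:103812524-103813996, *Hbb-bs* chr7:103826534-103828096 and *Hbb-y* chr7:103851749-103853216. In both clusters the embryonic gene is the most upstream member. The coding sequences of the adult copies differed at 1 base in each pair, C381T from *Hba-a1* to *Hba-a2* and C417T from *Hbb-bs* to *Hbb-bt* (positions from the first base of the start codon), and each pair encodes 1 protein. The stretches around these bases are printed here because they show how little sequence separates the copies, with the differing base in capitals:
Hba-a1 (chr11:32284328-32284358, plus strand): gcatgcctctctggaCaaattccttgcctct
Hba-a2 (chr11:32297145-32297175, plus strand): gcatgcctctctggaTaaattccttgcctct
Hbb-bs (chr7:103826677-103826707, minus strand): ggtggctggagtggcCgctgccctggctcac
Hbb-bt (chr7:103812668-103812698, minus strand): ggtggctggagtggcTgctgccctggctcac
Of the stretches of 90 bases in the last 400 bases of the transcript, where a 3′ library is read, 28.9% were unique to *Hba-a1*, 34.1% to *Hba-a2*, 51.1% to *Hbb-bs* and 51.5% to *Hbb-bt*. The split of reads between adult copies is therefore uncertain, and sums over a pair are safer than its members. *Hba-x*, *Hbb-y* and *Hbb-bh1* were unique over 100% of these stretches. The coding identity was 63.9% between *Hba-x* and *Hba-a1* and 74.4% between *Hbb-y* and *Hbb-bs*, so embryonic and adult reads are less open to confusion. If reads shared by the adult copies were left out of the counts, adult sums would be too low, pair sums included. The embryonic shares given below would then be too high, and the alpha-type shares could shift either way. This was not tested.

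The sequence just upstream of the start site is printed for the embryonic gene of each cluster and the adult gene with most UMIs in erythroid barcodes. The embryonic levels parted between barcodes, as described below, while those of *Hba-a1* overlapped. The TATA-type motif ATATAA is in capitals where it occurs (RefSeq start sites, GRCm38.p6, which lie inside the GENCODE spans given above):
Hba-x (chr11:32276560-32276589, plus strand): tgaccatgtgtATATAAaggagacactggg
Hba-a1 (chr11:32283632-32283661, plus strand): cccttggagggcATATAAgtgctacttgct
Hbb-y (chr7:103853218-103853247, minus strand): tgtctgtgaagcataaaaggccaccacttc
Hbb-bs (chr7:103827939-103827968, minus strand): agggcagagcATATAAggtgaggtaggatc
ATATAA was found, on the gene's strand, in the window of 110 bases of *Hba-x*, *Hba-a1*, *Hba-a2*, *Hbb-bs* and *Hbb-bt*, and not in that of *Hbb-y*. Only this exact string was searched, and variants of it, in *Hbb-y* or elsewhere, were not looked for. Searched on both strands, 4.09% of 32851 promoters hold it. CCAAT was found in the windows of *Hbb-y* and of the 4 adult genes (20.2% of promoters), and CACCC in those of *Hba-x* and of the 4 adult genes (29.6% of promoters). AGATAA, held by 3.99% of promoters, was in none of the 6 windows. A match describes letters in the window and is no evidence that a factor binds.

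A barcode was called erythroid when the 6 genes made at least 10% of its UMIs (unique molecular identifiers, 1 per captured molecule), which 462 of the 5421 barcodes did. The limit fell into a gap, as 3 barcodes lay between 5% and 10% and 1 between 2% and 5%, whereas 358 had 80% or more. The 3 erythroid barcodes closest to the limit had 10.4%, 10.4% and 11.4% globin, and the 3 closest below it had 9.77%, 6.76% and 6.26%. Erythroid barcodes had a median of 8836 UMIs (510 to 56393) but of only 273.5 detected genes, and 153 of them had fewer than 200 genes, the study's minimum for a cell. The other 219 barcodes under 200 genes were of another kind, with a median of 97.4% mitochondrial UMIs and at most 3 globin UMIs each. After the filters on gene number, doublets and outliers, 3771 barcodes below the limit remained as kept cells, with a median of 11999 UMIs, while 51 of the 462 erythroid barcodes passed the same filters. The label erythroid was checked on 15 non-globin markers, all of which were detected in these barcodes. Per 1000000 UMIs outside globin and mitochondrial genes (CPM) they summed to 18640 in erythroid barcodes and to 75.7 in kept cells. Of the 462 barcodes, 365 had 3 or more of the 15, as had 123 of the 3771 kept cells. The check was weaker in the barcodes rich in *Hbb-y* described below.

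**Figure D1:**
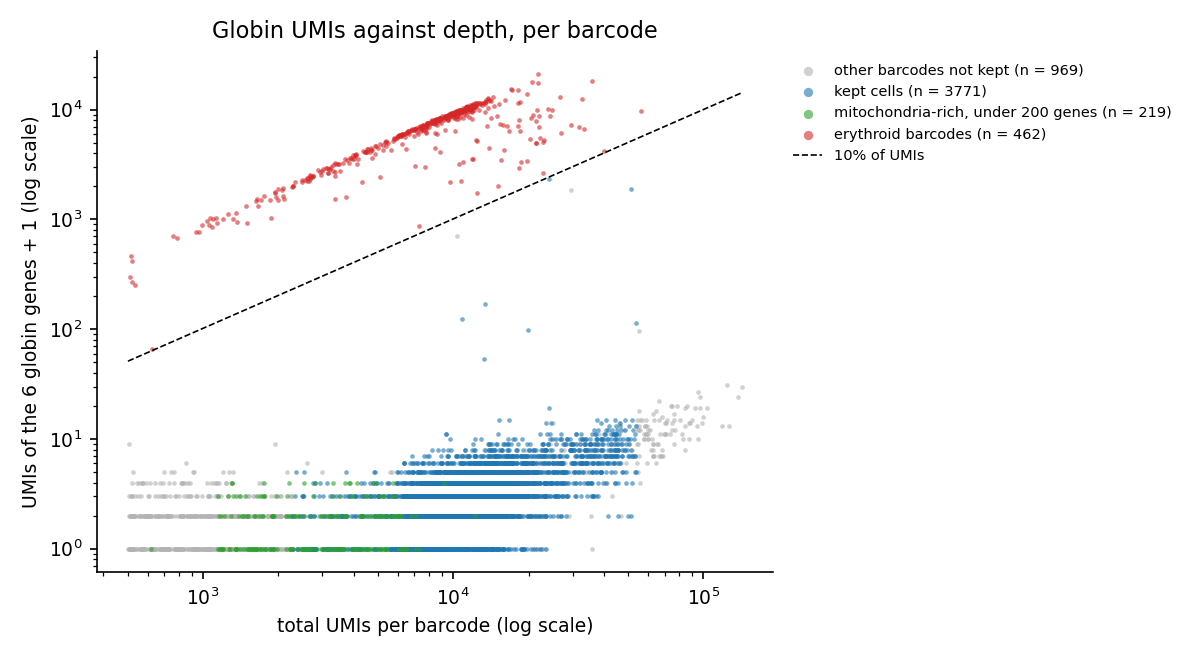
Globin UMIs plus 1 (y, log scale) against total UMIs (x, log scale), 1 point per barcode; the dashed line marks 10% of UMIs. The 462 erythroid barcodes lie above the line. The 3771 kept cells, with a median of 2 globin UMIs, lie below it, most of them far below and the closest at 9.77%.

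Markers of other cell types were present in part of the erythroid barcodes. Of the 462, 70 held at least 3 markers of 1 other type, and these were 49 of the 65 barcodes with 10 to 60% globin against 14 of the 358 with 80% or more. By embryonic content, 13 of the 95 barcodes rich in *Hbb-y* and 56 of the 365 others described below were among them. In the 358, the Sertoli markers summed to 203 UMIs, the Leydig markers to 94 and the germ cell markers to 28, and all 7 immune markers were at 0. The comparison of non-globin genes within the erythroid barcodes is therefore given with at least 80% globin as well, while that with kept cells uses all 462.

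In the 462 erythroid barcodes, 3154125 UMIs belonged to the 6 genes, 73.9% of all UMIs. *Hbb-bs*, an adult beta-type chain, took the largest part with 45.3% of the globin UMIs (95% interval 45.2 to 45.4), followed by *Hbb-bt* with 16.3%, *Hba-a1* with 14.7%, *Hbb-y* with 11.4%, *Hba-a2* with 10.9% and *Hba-x* with 1.33%. These are shares of counted molecules, which a 3′ count gives without a correction for length. The order holds beyond counting error for each pair of neighbours, although that of *Hba-a1* and *Hba-a2*, or of *Hbb-bs* and *Hbb-bt*, rests on reads that the copies partly share. The places of adult genes beside *Hbb-y* may also depend on how such reads were counted. Alpha-type genes made 27.0% of the globin UMIs. The embryonic genes together made 12.7% (12.7 to 12.8), *Hbb-y* made 15.6% of the beta-type UMIs and *Hba-x* 4.93% of the alpha-type UMIs.

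The pooled embryonic share was not the share of a typical barcode. Among the 460 erythroid barcodes with at least 20 beta-type UMIs, *Hbb-y* made more than 50% of the beta-type UMIs in 95 (called *Hbb-y*-major) and at most 0.485% in 363 (*Hbb-y*-low), with 2 barcodes in between. The 95 were defined by *Hbb-y*, so its level in them is a description. *Hba-x*, from the other chromosome, was not used in that choice, and its share of alpha-type UMIs was 5.65% to 84.3% (median 25.7%) in the 95 and 0 to 0.26% in the 363. For *Hbb-y* the gap between the groups follows from the choice. For *Hba-x* the groups did not overlap either, with the 2 barcodes in between (*Hbb-y* at 5% to 50%) left aside. Their *Hba-x* shares were 5.18% and 28.35%, the second within the range of the 95.

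**Figure D2:**
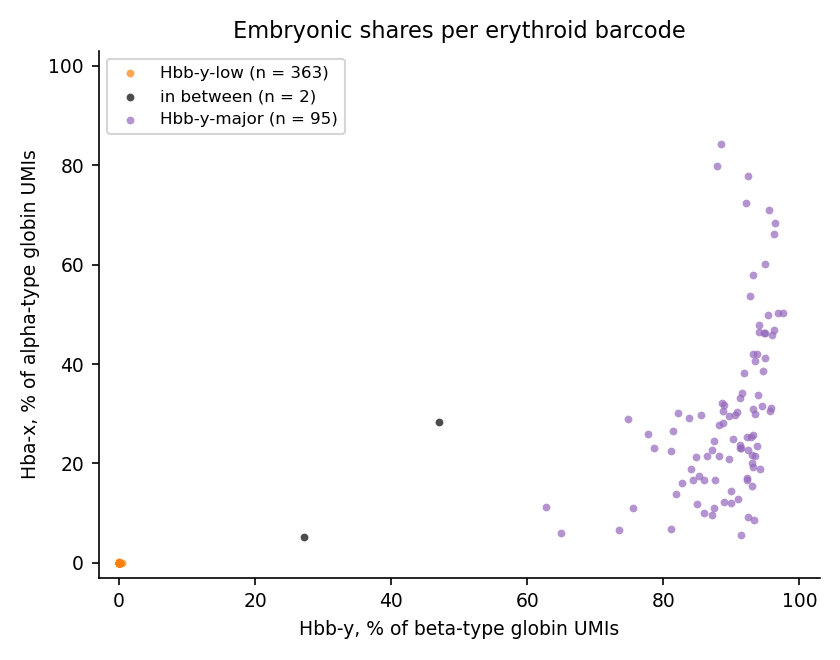
Share of *Hba-x* in alpha-type UMIs (y, %) against share of *Hbb-y* in beta-type UMIs (x, %) for the 460 erythroid barcodes with at least 20 beta-type UMIs. The 363 *Hbb-y*-low barcodes sit at the origin, the 95 *Hbb-y*-major barcodes between 62.7% and 97.7% on the x axis, and 2 barcodes in between.

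In *Hbb-y*-major barcodes, *Hbb-y* had 72 to 11192 UMIs per barcode (median 3454) and *Hba-x* 29 to 1626 (median 387). In *Hbb-y*-low barcodes the highest counts were 36 UMIs of *Hbb-y* and 3 of *Hba-x*, and 308 of the 363 had no *Hbb-y* UMI and 351 no *Hba-x* UMI. The shares of barcodes with an embryonic UMI lay near those in other cells. *Hbb-y* was seen in 15.2% of *Hbb-y*-low barcodes (exact binomial interval 11.6 to 19.3, median depth 9270 UMIs) and in 18.4% of kept cells (17.2 to 19.7, median depth 11999 UMIs), and *Hba-x* in 3.31% (1.72 to 5.7) and 1.99% (1.57 to 2.49). By this measure neither gene was more often seen in *Hbb-y*-low barcodes than in kept cells beyond counting error, although the barcode with 36 *Hbb-y* UMIs lay above every kept cell with fewer than 20 globin UMIs.

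The reverse did not hold, because adult globins were abundant in *Hbb-y*-major barcodes. *Hba-a1* and *Hba-a2*, the adult alpha copies, had medians of 624 UMIs (21 to 2392) and 367 UMIs (21 to 1140), so most alpha-type mRNA was adult in a typical *Hbb-y*-major barcode. *Hbb-bs* and *Hbb-bt* together had 5 to 1719 UMIs (median 353) against a median of 2 and a mean of 2.43 in kept cells. In 88 of the 95 they reached at least 20 UMIs. *Hbb-y*-low barcodes had medians of 1088 UMIs of *Hba-a1* (50 to 3244), 853 of *Hba-a2* (40 to 2661), 4166 of *Hbb-bs* (179 to 12170) and 1366 of *Hbb-bt* (23 to 4800). The single counts overlap between the groups for all 4 adult genes. As shares of a barcode's globin UMIs, *Hba-a1*, *Hba-a2* and *Hbb-bt* overlap too, whereas *Hbb-bs* made at most 19.2% in *Hbb-y*-major and at least 42.1% in *Hbb-y*-low barcodes. *Hbb-bs* and *Hbb-bt* are part of the beta-type sum that defined the groups, so a gap in *Hbb-bs* was partly built into the choice.

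Summed over barcodes, *Hbb-y* made 64.1% of the globin UMIs of *Hbb-y*-major barcodes, *Hba-a1* 13.4%, *Hba-x* 7.38%, *Hba-a2* 7.16%, *Hbb-bs* 5.37% and *Hbb-bt* 2.59%. In *Hbb-y*-low barcodes *Hbb-bs* made 53.9%, *Hbb-bt* 19.3%, *Hba-a1* 15.01% and *Hba-a2* 11.7%, and the embryonic genes 0.00447%, or 115 of 2574833 UMIs. Alpha-type genes made 28.0% of these summed globin UMIs in *Hbb-y*-major and 26.8% in *Hbb-y*-low barcodes. Per barcode this share ran from 16.0% to 87.1% (median 28.65%) in *Hbb-y*-major and from 6.34% to 40.3% (median 26.3%) in *Hbb-y*-low barcodes. Most beta-type UMIs of *Hbb-y*-major barcodes came from *Hbb-y*, which shares no stretch with the adult copies, whereas those of *Hbb-y*-low barcodes came from adult copies. Leaving out shared reads could therefore shift the alpha-type share differently in the groups, which was not tested. 

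**Figure D3:**
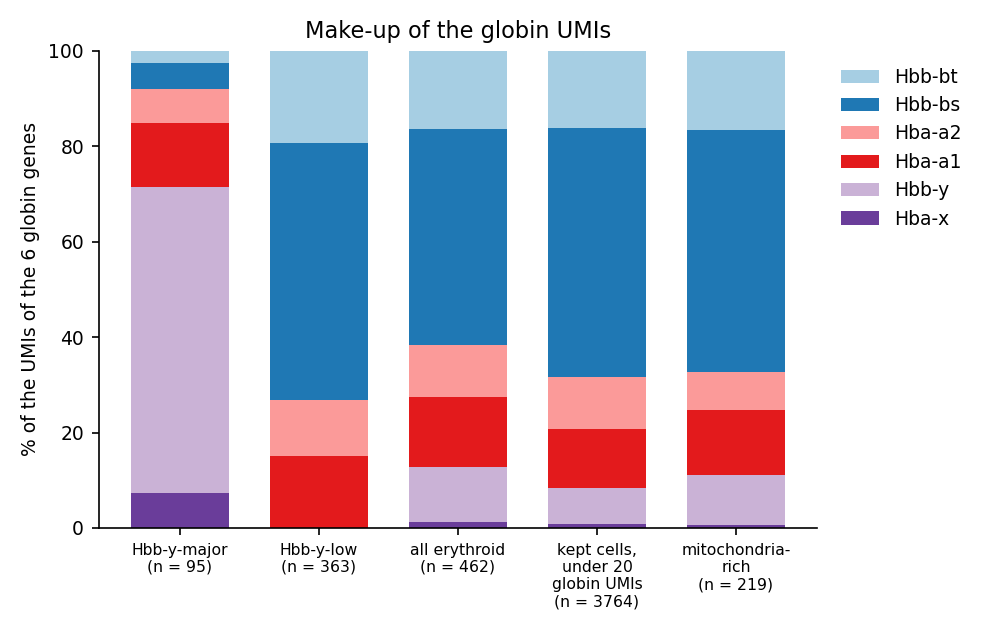
Shares of the 6 genes in the globin UMIs (y, %) of *Hbb-y*-major, *Hbb-y*-low and all erythroid barcodes, of kept cells with fewer than 20 globin UMIs and of mitochondria-rich barcodes under 200 genes. Embryonic genes (purple) fill 71.4% of the first bar, nearly none of the second and 8.33% to 12.7% of the other 3.

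The groups also differed outside the globins. *Hbb-y*-major barcodes had a lower globin share (median 85.4% against 91.5%), a lower mitochondrial share (median 0.201% against 0.617%) and fewer UMIs (median 7599 against 9270), with 300 detected genes against 267, and all 4 ranges overlapped. Their non-globin erythroid markers were sparse, with a median of 3 UMIs per barcode against 44 in the 365 other barcodes with 20 beta-type UMIs. Of the 95, 42 had 3 or more of the 15 markers, against 323 of the 365. The number of *Hbb-y*-major barcodes therefore depended on how erythroid barcodes were chosen. Chosen by these markers in place of globin, 360 barcodes were erythroid, 358 of them among the 462. This choice used another rule than 3 or more of the 15 markers, which 42 of the 95 reached. By this choice 33 barcodes were *Hbb-y*-major, and the embryonic share of the globin UMIs fell from 12.7% to 6.49%.

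The 2 barcodes in between had more UMIs than a typical erythroid barcode, 17061 and 18131. In the first, *Hbb-y* made 27.2% of beta-type and *Hba-x* 5.18% of alpha-type UMIs, and in the second 47.1% and 28.3%. Of the 2, 1 held at least 3 markers of another cell type. Whether they are single cells or pairs was not tested. A further 2 erythroid barcodes had fewer than 20 beta-type UMIs and were not classed, with 65 and 251 globin UMIs, of which 31 and 136 were *Hba-x* and 6 and 8 *Hbb-y*.

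Within *Hbb-y*-major barcodes, the embryonic shares varied between barcodes. *Hba-x* made 5 to 10% of the alpha-type UMIs in 7 barcodes, 10 to 20% in 21, 20 to 30% in 30, 30 to 50% in 25, 50 to 70% in 7 and more than 70% in 5. Across the 95 barcodes the share of *Hba-x* rose with that of *Hbb-y* (Spearman's rho 0.57), a description over barcodes of 1 library that share a pool of testes and differ in depth. The share of *Hba-x* was also higher in barcodes with fewer UMIs (rho -0.35), as was the share of alpha-type UMIs in globin (rho -0.59), which ranged from 16.0% to 87.1%. What depth contributes to these relations was not tested.

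The adult copies were counted in unlike proportions in the groups. *Hba-a2* made 24.5% to 50% of the adult alpha UMIs in *Hbb-y*-major barcodes (median 35.2%) and 25.5% to 50.5% in *Hbb-y*-low barcodes (median 44.1%). At most 40% was reached by 90 of the 95 and by 31 of the 363, although the ranges overlap. Summed over barcodes, the share was 34.8% (34.5 to 35.1) against 43.9% (43.8 to 44.0). *Hbb-bt* made 2.41% to 89.8% of the adult beta UMIs in the 88 *Hbb-y*-major barcodes with 20 such UMIs (median 31.1%) and 3.01% to 40.7% in *Hbb-y*-low barcodes (median 24.9%). In *Hbb-y*-low barcodes the *Hbb-bt* share was higher in deeper barcodes (rho 0.504 with UMIs, n = 363) and only loosely tied to that of *Hba-a2* (rho 0.153). The parts of shared reads and of the beta-globin haplotype, which is not given, in these proportions were not tested.

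*Hbb-bh1*, the beta-h1 chain of primitive cells, was the most abundant globin gene outside the 6 in erythroid barcodes, with 1068 UMIs, or 0.0463% of the beta-type UMIs with *Hbb-bh1* included. It was detected in 77 of the 95 *Hbb-y*-major barcodes, with a median of 3 and a highest count of 167 UMIs, 825 in all. The 2 barcodes in between held 14 and 33 UMIs. In *Hbb-y*-low barcodes, 20 of 363 had any, and 5 of these had 5 or more, chosen here after their values were seen. They held 87, 46, 20, 16 and 5 *Hbb-bh1* UMIs beside 8360 to 11960 globin UMIs, while *Hbb-y* had 8 UMIs in the second and none in the others, and *Hba-x* had 1 UMI in the fourth and none in the others. These 5 held 80 to 112 UMIs of non-globin erythroid markers and at most 2 of other types' markers. *Hbb-bh1* was seen in 0.318% of kept cells (0.164 to 0.555), far below its 81.1% (71.7 to 88.4) in *Hbb-y*-major barcodes. The theta-globin genes *Hbq1a* and *Hbq1b* had 114 and 119 UMIs in erythroid barcodes and 2 and 4 in kept cells. Their CPM were close in the groups with 80% globin or more, at 372 in *Hbb-y*-major against 399 in *Hbb-y*-low barcodes for *Hbq1a* and 237 against 235 for *Hbq1b*. Cytoglobin (*Cygb*), neuroglobin (*Ngb*) and myoglobin (*Mb*), which serve outside red cells, had 27, 1 and 2 UMIs in erythroid barcodes.

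Genes of red cell formation accompanied the globins. Their CPM rest on 1022005 UMIs outside the 6 globins and the mitochondrial genes in erythroid barcodes and 49144183 in kept cells. Of the 1022005 UMIs, 695244 came from the 65 barcodes with 10 to 60% globin, and 49 of these 65 held at least 3 markers of 1 other type. The erythroid CPM and ratios below therefore rest mostly on these barcodes. The non-globin erythroid markers summed to 5175 CPM in the 65 and to 52597 CPM in erythroid barcodes with at least 80% globin. The part of other cell types in the erythroid CPM was not tested. Of all 15478 genes with at least 10 UMIs, 466 had a CPM at least 4 times higher in erythroid barcodes than in kept cells, a background of 3.01%, and the median ratio over all genes was 0.631. Among the genes of the lists 58 of 72 reached 4-fold. The lists name known erythroid genes and the barcodes were chosen by globin, so a high count was built into the choice.

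All 15 membrane and skeleton genes reached 4-fold, with a median ratio of 91.7. The anion exchanger *Slc4a1* had 940 CPM in erythroid barcodes and 0.936 in kept cells, protein 4.2 (*Epb42*) 144 and 0.183, and the Kell antigen gene *Kel* 134 and 0.183. All 12 late maturation genes reached it, with a median ratio of 135. Examples are *Trim10* with 488 and 0.366 CPM, *Tspo2* with 377 and 0.549, and hemogen (*Hemgn*) with 417 and 1.12. They were seen in 117, 161 and 59 of the 462 erythroid barcodes.

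Of 13 genes of heme synthesis and its mitochondrial transport, 10 reached 4-fold. The erythroid 5-aminolevulinate synthase *Alas2*, which starts the pathway, had 3403 and 6.08 CPM, the mitochondrial iron importer *Slc25a37* 2099 and 7.55, ferrochelatase (*Fech*), which inserts iron into the ring, 1402 and 26.8, and *Cpox* 512 and 27.4. *Alas1*, the enzyme of other tissues, had a ratio of 1.09 (0.96 to 1.24), and *Tmem14c* and *Slc25a38* had 3.33 and 2.96. Among 8 genes of redox control and metabolism 7 reached it, with carbonic anhydrase 2 (*Car2*) at 2786 and 10.6 CPM, bisphosphoglycerate mutase (*Bpgm*), which sets the oxygen affinity of haemoglobin, at 3336 and 19.7, *Car1* at 28.4 and 0.794, and *Gpx1* at 7945 and 234. The exception was *Aqp1*, with 4 UMIs in erythroid barcodes. *Car1* was seen in 6 of the 462 erythroid barcodes. Of 6 genes of iron handling and receptors 4 reached it, namely *Epor*, *Tfrc* and the ferritin chains *Fth1* and *Ftl1*, with ratios of 26.9, 15.2, 12.4 and 10.8, whereas *Slc11a2* had 1.42 (0.862 to 2.21) and *Kit*, a receptor of early progenitors, had 0.319 (0.0656 to 0.939) on 3 UMIs in erythroid barcodes.

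Of 12 transcription factors 7 reached 4-fold. *Tal1* had 128 CPM in erythroid barcodes and 0.997 in kept cells, *Gfi1b* 30.3 and 0.265, *Klf1*, an activator of adult beta globin, 171 and 1.99, and *Gata1* 58.7 and 0.692. In this order, they were seen in only 54, 11, 45 and 28 of the 462 erythroid barcodes. *Bcl11a*, a repressor of embryonic beta-type genes, had 16 UMIs in erythroid barcodes and a ratio of 1.43 (0.815 to 2.35), and *Myb* had 0 CPM in erythroid barcodes and 2.4 in kept cells, with an interval of the ratio, 0 to 1.53, that includes 1.

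The genes with a pattern most like that of the globins were ranked by their CPM in erythroid barcodes over the highest CPM in any class of kept cells, for genes with at least 10 UMIs in erythroid barcodes. Among these classes were 6 erythroid-like kept cells, themselves rich in globin and the highest class for *Alas2* (8 UMIs). Erythroid genes detected in them therefore rank lower. *Sowaha* and *Apol11b* had no UMI in kept cells. They had 49 UMIs in 22 and 12 UMIs in 4 erythroid barcodes, and were at least 785-fold and at least 192-fold higher than in all kept cells together (a floor of 3 counts over all kept cells, hence no bound for a single class). *Hsd3b6*, whose reads may be shared with its close relatives, had 267 UMIs in 76 barcodes and a ratio of 624 (171 to 5179) against 2 UMIs in unnamed clusters, and *Hbq1a* had a ratio of 448 (121 to 3745) against 2 UMIs in germ-like cells. *Bpgm*, *Alas2*, *Tmcc2*, *Snx22* and *Pdzk1ip1* had ratios of 83.9, 52.9, 48.7, 40.8 and 38.3, that of *Snx22* (6.34 to 1711) against 1 UMI. *Alas2* and *Bpgm* were seen in 376 and 335 of the 462 barcodes.

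Most list genes with enough UMIs were scarcer in *Hbb-y*-major than in *Hbb-y*-low barcodes. Genes were taken at 20 UMIs or more, summed over both groups. Since *Hbb-y*-low barcodes held more UMIs, a gene could enter through them alone, as *Lmo2* did with 95 against 0. A gene high in *Hbb-y*-major barcodes needed a higher CPM to enter. This tilts the counts below towards lower ratios, for list genes and for all genes. In the barcodes with at least 80% globin (67 *Hbb-y*-major with 59087 UMIs outside globin and mitochondrial genes, 289 *Hbb-y*-low with 183019), 44 list genes had 20 UMIs or more, of which 27 had a CPM at least 4 times lower in *Hbb-y*-major barcodes and 2 at least 4 times higher. Over all 873 genes of this size, 22.7% were at least 4 times lower and 8.59% at least 4 times higher, and the median ratio was 0.723 against 0.153 over the list genes. Without the limit of 80%, where the 95 were set against all 365 other barcodes, 39 of 65 list genes were at least 4 times lower and 1 higher, against 7.23% and 0.774% of all 5684 genes.

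Late maturation genes had the lowest ratios, with 7 of 9 at least 4 times lower and a median ratio of 0.0738. *Mkrn1* had 1117 CPM in *Hbb-y*-major and 18228 in *Hbb-y*-low barcodes, and *Trim10* 50.8 and 1382. *Bnip3l*, which takes part in the removal of mitochondria, did not reach 4-fold, with 1896 and 6486 CPM. Of 6 genes of redox control and metabolism 3 were at least 4 times lower, namely *Gpx1*, *Bpgm* and *Cat*, while *Blvrb* had a ratio of 0.746 (0.659 to 0.842). Of 8 heme genes 5 were at least 4 times lower. *Alas2* had 1709 and 14195 CPM, *Fech* 440 and 4759, and *Slc25a37* 84.6 and 5917, whereas *Cpox* had a ratio of 0.31 (0.0605 to 0.996). Of 11 membrane genes 8 were at least 4 times lower, among them *Slc4a1* with 491 and 1994 CPM and *Rhd* with 33.9 and 1399. *Kel*, *Tmod1* and *Ermap* had ratios of 0.729, 0.743 and 0.968, each with an interval that includes 1.

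Some list genes went the other way. *Tal1*, a transcription factor of early blood formation, had 32 UMIs in *Hbb-y*-major and 3 in *Hbb-y*-low barcodes, a ratio of 33.0 (10.3 to 169). It fell to 2.98 (2.05 to 4.28) when the barcodes with less than 80% globin were included. *Hbb-bh1* had a ratio of 7.97 (6.69 to 9.52). *Fth1*, the ferritin heavy chain, had 144093 CPM in *Hbb-y*-major and 55579 in *Hbb-y*-low barcodes, a ratio of 2.59 (2.52 to 2.67), and *Ftl1* 69102 and 65261. The erythroid factors *Klf1*, *Nfe2* and *Lmo2* had 1, 1 and 0 UMIs in *Hbb-y*-major against 22, 22 and 95 in *Hbb-y*-low barcodes.

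**Figure D4:**
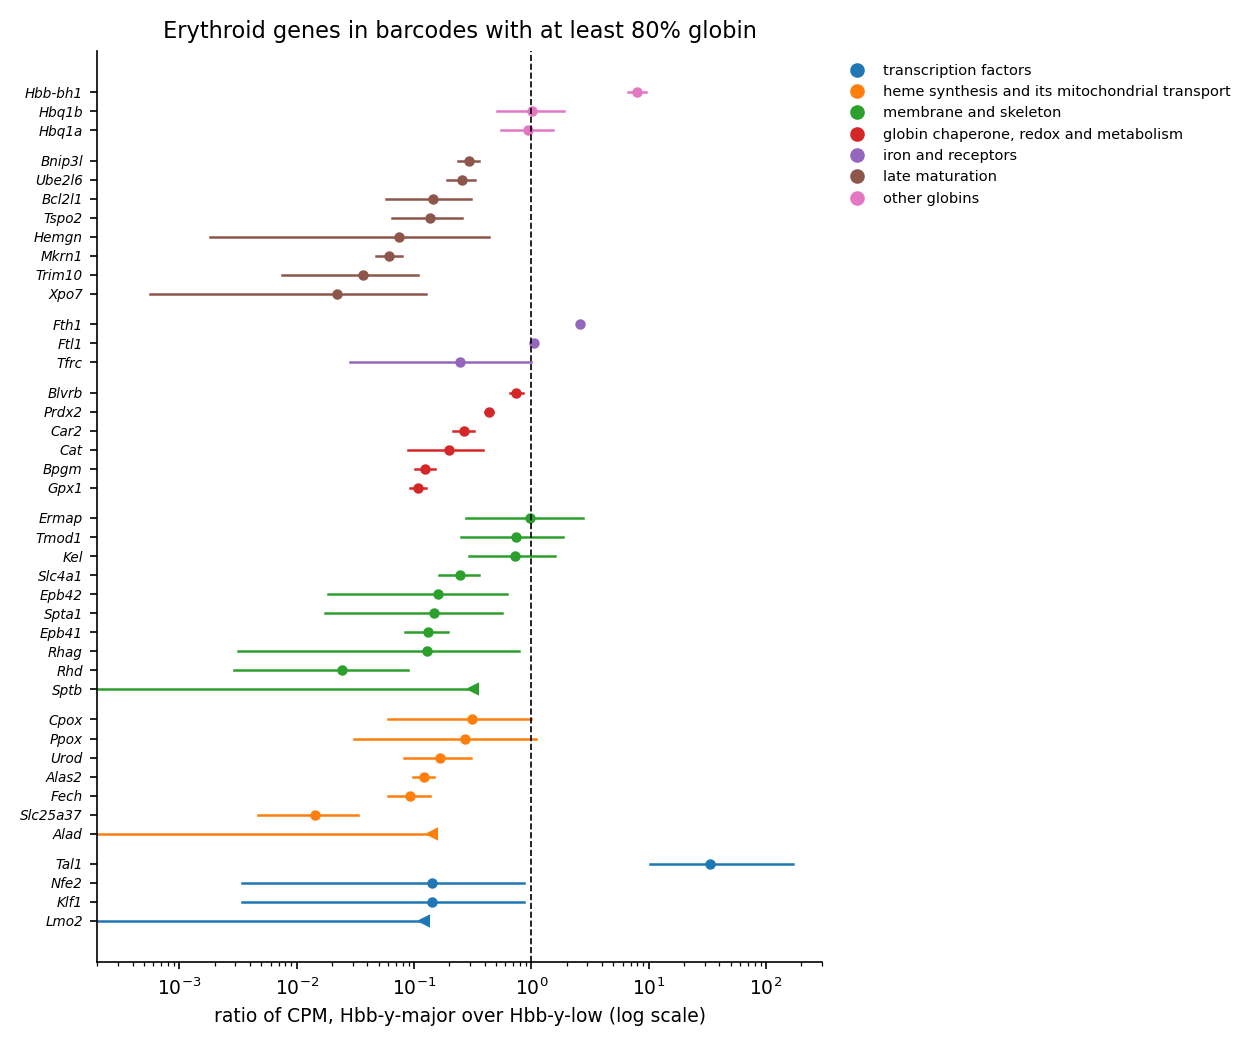
Ratio of CPM in *Hbb-y*-major over *Hbb-y*-low barcodes with at least 80% globin (x, log scale) for 41 of the 44 list genes with 20 UMIs or more, with 95% counting intervals; arrowheads mark the upper bound where *Hbb-y*-major barcodes had no UMI, and lines end at the edge of the plot. *Tal1*, *Hbb-bh1* and *Fth1* lie right of 1, and most genes lie left of it.

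By rule, the 5 genes with the largest ratio each way were named, first for the 95 against the 365 other barcodes and then for those with at least 80% globin. In the first, *Fam174b*, *Pdzk1ip1*, heme oxygenase 1 (*Hmox1*), *Hsd3b6* and *Hbb-bh1* were higher in *Hbb-y*-major barcodes, with ratios of 65.4 (20.9 to 330 against 3 UMIs), 43.5, 29.0, 21.9 and 15.9. *Hemgn*, *Ren1*, *Mpp1* and *Hao2* were lower, each with 1 UMI in *Hbb-y*-major barcodes against 425, 347, 298 and 223. *Ren1* and *Hao2* are among the 10 leading genes of the Leydig-like cells, and their UMIs came from 23 and 9 barcodes, beside Leydig markers that summed to 54 UMIs in *Hbb-y*-major and 4673 in the other barcodes; the part of Leydig RNA in these counts was not tested.

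With at least 80% globin, the amino acid transporter *Slc38a2* had 157 UMIs in 51 *Hbb-y*-major barcodes and 2 UMIs in *Hbb-y*-low barcodes. *Junb* had 56 against 1 and *Ddit3*, a factor of the stress response, 43 against 2. *Pdzk1ip1* had 82 against 2 and *Hmox1* 64 against 0, at least 66.1-fold higher by a floor of 3 counts over the group. Lower were the ubiquitin-conjugating enzymes *Ube2c* (1 against 863 UMIs) and *Ube2e3* (2 against 349) and *Slc25a37* (5 against 1083). *Pdzk1ip1* and *Hmox1* were named in both settings.

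Outside erythroid barcodes, globin UMIs were few and widespread, and their source was not tested. A kept cell had a median of 2 globin UMIs, and 87.3% (86.2 to 88.4) had at least 1. *Hbb-bs* was seen in 69.9% of kept cells, *Hbb-bt* in 34.2%, *Hba-a1* in 27.7%, *Hba-a2* in 24.9%, *Hbb-y* in 18.4% and *Hba-x* in 1.99%, the order of their totals in erythroid barcodes except that *Hba-a2* and *Hbb-y* changed places. The mitochondria-rich barcodes had 162 globin UMIs in 219 barcodes, or 0.74 per barcode.

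Of the 3771 kept cells 7 held 20 globin UMIs or more, and these took 4798 of the 14997 globin UMIs. Of the 7, 6 were erythroid-like cells with 52 to 2349 globin UMIs (0.211% to 9.77% of their UMIs) and 35 to 98 UMIs of non-globin erythroid markers. They held *Klf1* in every cell (4 to 15 UMIs), 1 UMI of *Hbb-y* in all 6 together and none of *Hba-x*. The seventh was a germ-like cell with 1896 globin UMIs (3.68%), 268 UMIs of germ cell markers and 1 of erythroid markers. *Hbb-y* made 91.3% of its beta-type and *Hba-x* 29.3% of its alpha-type UMIs, values within the range of *Hbb-y*-major barcodes, and it held 10 *Hbb-bh1* UMIs. Whether this barcode held more than 1 cell was not tested. All other kept cells had at most 18 globin UMIs.

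Levels by cell class are given without these 7 cells, since the germ-like cell alone raised the mean of its class from 5.95 to 13.5 globin UMIs per cell. Classes were named from markers, and 451 cells stayed unnamed. The mean was highest in germ-like cells with 5.95 globin UMIs per cell (5.65 to 6.26, n = 251), followed by Leydig-like cells with 3.39 (3.15 to 3.65, n = 218), Sertoli-like cells with 3.24 (3.12 to 3.36, n = 852) and coelomic epithelium-like cells with 2.93 (2.67 to 3.22, n = 151). Rete testis-like (n = 23), immune-like (n = 35), peritubular myoid-like (n = 520), endothelial-like (n = 32) and perivascular-like cells (n = 98) lay between 2.17 and 2.74, with intervals that overlap. Interstitial-like cells had the lowest mean, 1.92 (1.84 to 2.0, n = 1133), an interval that overlaps those of endothelial-like and perivascular-like cells. Germ-like cells were also the deepest, with a median of 36054 UMIs, and interstitial-like cells the shallowest, with 8766.

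Per 1000000 UMIs of all genes the order was different. Germ-like cells had 170 globin UMIs by this measure (161 to 179), Sertoli-like cells 216 (208 to 224), interstitial-like cells 209 (200 to 218), Leydig-like cells 167 (155 to 179) and coelomic epithelium-like cells 158 (144 to 173). The spread between the highest and the lowest class with at least 50 cells shrank from 3.1-fold per cell to the range of 158 to 216 per 1000000. Thinned to 5000 UMIs, 65.9% of Sertoli-like cells (62.6 to 69.1), 64.1% of interstitial-like cells (61.1 to 67.0), 54.4% of Leydig-like cells (47.5 to 61.2) and 53.4% of germ-like cells (47.0 to 59.8) had a globin UMI, where the unthinned shares were 93.7%, 81.2%, 90.4% and 98.8%. Thinning is a random draw, and another draw, which included the 7 cells, gave 66.6%, 64.2%, 54.9% and 60.5%, so differences of several percentage points between classes are within the draw. Across 5 bins of equal numbers of kept cells, ordered by depth, the mean rose from 1.4 (1.32 to 1.49) to 4.85 (4.69 to 5.01) globin UMIs per cell while the level per 1000000 UMIs went from 223 (210 to 237) to 172 (166 to 177).

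**Figure D5:**
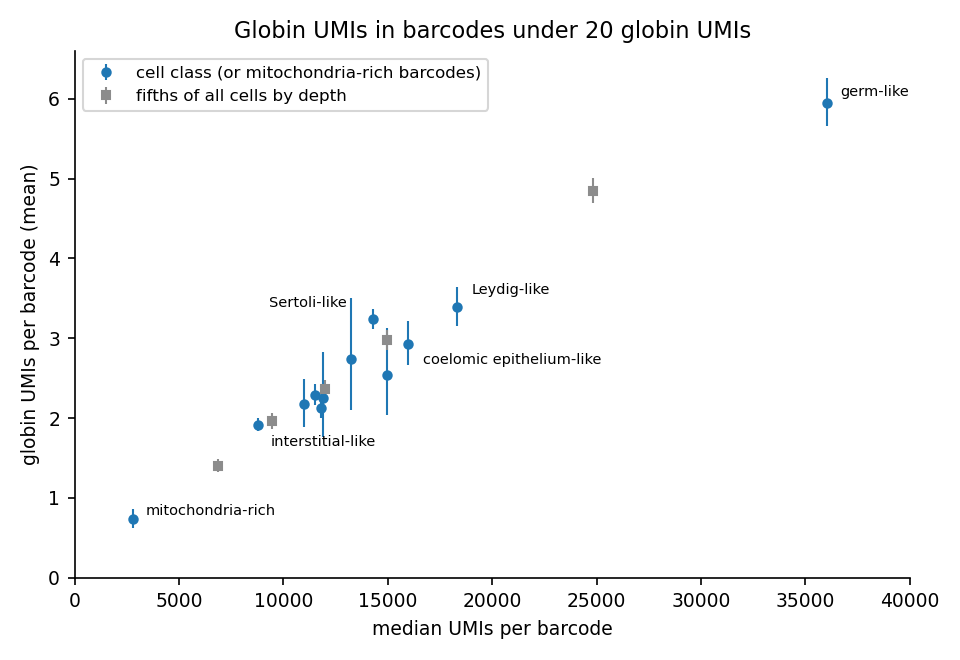
Mean globin UMIs per barcode (y) against median UMIs per barcode (x) for each class of kept cells, the mitochondria-rich barcodes (blue) and 5 bins of the kept cells by depth (grey), without the 7 kept cells with 20 globin UMIs or more; bars are exact Poisson 95% intervals. Means run from 0.74 in mitochondria-rich barcodes to 5.95 in germ-like cells.

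The globin UMIs of kept cells held both adult and embryonic genes. Without the 7 cells, *Hbb-bs* made 52.1% of 10199 globin UMIs, *Hbb-bt* 16.2%, *Hba-a1* 12.3%, *Hba-a2* 11.0%, *Hbb-y* 7.58% and *Hba-x* 0.755%. The embryonic share was 8.33% (7.81 to 8.89), below the 12.7% of the erythroid barcodes by more than counting error. It was above the 6.49% of erythroid barcodes chosen by non-globin markers, so the direction depends on that choice. With the 7 cells the embryonic share was 14.1%, as the germ-like cell alone held 1037 of the 1811 *Hbb-y* and 223 of the 300 *Hba-x* UMIs of all kept cells. It was 8.19% (7.2 to 9.28) in Sertoli-like, 8.47% (6.95 to 10.2) in peritubular myoid-like, 7.16% (5.41 to 9.26) in Leydig-like and 9.03% (6.53 to 12.1) in coelomic epithelium-like cells, and it ran from 7.82% to 8.79% over the 5 bins by depth, with intervals that overlap. In the mitochondria-rich barcodes it was 11.1% (6.72 to 17.0). Endothelial-like cells had 16.7% (8.92 to 27.3), on 12 of 72 UMIs.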

How the data were processed

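The authors sequenced a 10x Genomics 3′ (v3) library and deposited UMI counts per gene and barcode; per the file headers these were made with Cell Ranger 3.1.0, the submitters' processing notes name versions 3.0.2 and 3.1.0 with mm10 (GRCm38), and the study's methods name another version and a genome with the YFP sequence added. The deposited counts hold 5421 barcodes with 501 to 143197 UMIs (median 10766). Counts were used as deposited. The 6 genes, the gene lists and the alternatives were chosen with earlier results of these data known.

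A barcode was called erythroid at a globin share of 10% or more. Kept cells had at least 200 genes, were not among the 204 barcodes (4.04%) closest to artificial doublets, and lay within 3 median absolute deviations for log UMIs, log genes and ribosomal share, and not above this range for mitochondrial share. They were clustered together with the 51 erythroid barcodes that passed the same filters, with Seurat 5.3.0 and sctransform 0.4.2 (3000 variable genes, 30 components, resolution 0.8). Of the 40 barcodes in the erythroid-like cluster, 34 were such erythroid barcodes. All 6 globin genes were among the variable genes. To be named, a cluster needed a mean log2 ratio of a type's markers over all other cells (5 CPM added) of at least 1. At least 3 of these markers had to be in 25% of its cells. No other type could have more markers among the cluster's 10 leading genes. A cluster whose median UMIs lay under the median of all clustered cells divided by 3 also needed a marker of its type among those genes. By that rule, a cluster of 64 cells nearest to Sertoli cells, with a median of 3148 UMIs, stayed unnamed. These limits were set after clusters had been seen.

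Shares have exact Clopper-Pearson intervals, levels exact Poisson intervals and ratios exact conditional intervals, all at 95%. With a denominator of 0, a ratio was taken against 3 counts. Genes were named by rule: up to 4 per list by ratio, the 10 most like the globins, and 5 each way between *Hbb-y*-major and other barcodes (*Hbb-y* above 50% of at least 20 beta-type UMIs). Other list genes are named as examples chosen after their values were seen. The gene ratio was tested on simulated Poisson counts for erythroid barcodes against all other barcodes, not kept cells alone. There 200 of 200 genes raised 8-fold were found, with 116 others of 15470 past 4-fold. The raised genes had more than 20 UMIs expected before the rise, so genes with fewer UMIs were not covered. With so many UMIs an 8-fold rise was all but bound to pass 4-fold, and the counts had no spread between barcodes. The simulation therefore checks the computation and says nothing on how reliable the ratios are. *Ahsp* was not analysed here. Some genes that the rule selects are not reported here; counts and medians of lists include them. Computations used Python with numpy, scipy and scikit-learn, and R 4.3.3.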

Additional observations from a re-analysis of the deposited data

How the results depend on the processing

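Only 1 library was analysed, so that no result has a replicate and no paired analysis was possible because the design has no second group. Depth limits the statements on single *Hbb-y* and *Hba-x* UMIs in *Hbb-y*-low barcodes and on genes with few UMIs. The number of erythroid barcodes, 462, stayed within 1.5 times of this value under each alternative (309 to 465), as did the number of list genes at least 4 times higher (49 to 65) and the median of 2 globin UMIs per kept cell. The number of *Hbb-y*-major barcodes, 95, stayed within 1.5 times except when chosen by non-globin markers (33). The embryonic share of the globin UMIs in erythroid barcodes, 12.7%, was 12.8% at a limit of 20%, 12.4% at 50%, 6.49% when chosen by non-globin markers, 15.1% with at least 200 genes, 15.02% with barcodes weighted equally and 11.7% without the 10 barcodes with most globin UMIs, in that order of settings. In the same order, the *Hbb-y* share of beta-type UMIs was 15.7%, 15.2%, 8.0%, 18.7%, 18.9% and 14.3%, and the *Hba-x* share of alpha-type UMIs, which did not move with the limits, was 2.38%, 5.34%, 6.49% and 4.6% under the last 4. With at least 80% globin, an alternative chosen after seeing the data, they were 12.3%, 15.2% and 4.44%. The globin share of UMIs in kept cells, 0.0279%, was 0.0271% with 5 median absolute deviations, 0.02725% with no outlier filter, 0.0314% with no doublets removed, 0.0235% below 5% globin, 0.587% with no globin limit, 0.01875% without the 1% of cells with most globin and 0.019% without the 7 cells of 20 globin UMIs or more, the last chosen after seeing the data. In this order, the embryonic share in kept cells, 14.1%, was 13.5%, 13.4%, 11.8%, 16.7%, 15.7%, 8.34% and 8.33%. Of the 7 cells, the germ-like one held 1037 *Hbb-y* and 223 *Hba-x* UMIs and the other 6 together 1 *Hbb-y* UMI. The ratio of the highest to the lowest class, 7.02, was 3.1 without these 7 cells. The share of kept cells with a globin UMI fell from 61.4% to 44.9% when thinned to 3000 in place of 5000 UMIs, as fewer UMIs per cell must give. The single shares of the 6 genes moved by at most 0.363 percentage points with the limit, yet at 50% this put *Hba-a2* above *Hbb-y*. The causes of these moves were not tested.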
